A study of Mus musculus with 7 samples.

Results

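The genes described here are 10 mouse genes of the integrated stress response and the unfolded protein response: Atf4, Ddit3, Chac1, Trib3, Asns, Sesn2, Ppp1r15a, Xbp1, Hspa5 and Herpud1. They were taken by symbol from the rows of a raw count table, and all 10 were present among its 27998 genes. Counts came from single-cell RNA sequencing of abdominal (#4) mammary glands, lymph nodes removed, of virgin (nulliparous) female mice in diestrus. The mice had a mixed FVB, 129, C57BL/6J background, and the study's methods name no treatment of the animals and no engineered allele. Young mice were 3 to 4 months old (n = 3, Young A, B and C) and aged mice 13 to 14 months old (n = 4, Aged A, B, C and D). Each mouse gave 1 library, whose cells were freed by warm collagenase and hyaluronidase digestion, a step in which adipocytes were lost. The study named 13 cell types, among them myoepithelial cells, luminal hormone-sensing (HS) cells, luminal alveolar progenitor (AV) cells, a mixed luminal type (HS-AV), fibroblasts, vascular endothelial cells and pericytes.

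In the integrated stress response, kinases that sense amino acid shortage, unfolded protein, viral RNA or heme shortage phosphorylate the translation factor eIF2alpha. Most translation then falls while that of the transcription factor ATF4 rises, and ATF4 turns on genes for amino acid supply, redox balance and, under lasting stress, cell death. The unfolded protein response of the endoplasmic reticulum (ER) uses one of these kinases, PERK, beside the sensors IRE1, which splices Xbp1 mRNA, and ATF6, which induces ER chaperones. Counts per gene do not show how strongly Atf4 mRNA is translated or how much Xbp1 mRNA is spliced. In the mammary gland these pathways are best known from secretory epithelium, while myoepithelial cells are its contractile basal layer.

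The 10 genes lie on 8 chromosomes of build GRCm38, which mm10 also names. Atf4 spans chr15:80255184-80257541, Ddit3 chr10:127290774-127296288, Chac1 chr2:119351229-119354381, Trib3 chr2:152337422-152344032 and Asns chr6:7675169-7693254. Sesn2 spans chr4:132492032-132510501, Ppp1r15a chr7:45522916-45526268, Xbp1 chr11:5520659-5525893, Hspa5 chr2:34771970-34777547 and Herpud1 chr8:94386438-94395377. Trib3, Asns, Sesn2 and Ppp1r15a are on the minus strand and the other 6 on the plus strand.

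Promoters of 5 of the 10 genes are printed because they hold letters of an element known from these pathways. Each runs from 250 bases before the RefSeq gene start to 50 after it (GRCm38.p6), 5′ to 3′ on the gene's strand, with the matching bases in capitals. The core of the C/EBP-ATF response element, through which ATF4 acts with C/EBP proteins, was searched as TGATGNAA on both strands and was found in Chac1, Trib3, Asns and Herpud1, against 3.97% of all 32851 RefSeq promoters. It read TGATGCAA on the minus strand 193 to 186 bases before the start of Chac1, and TGATGTAA on the minus strand 14 to 21 bases after the start of Trib3. In Asns it read TGATGAAA on the plus strand 23 to 16 bases before the start, and in Herpud1 TGATGCAA on the minus strand 112 to 105 bases before it. The ER stress response element (ERSE), a site of ATF6 with NF-Y, was searched on both strands as CCAAT and CCACG with 9 bases of any kind between them and was found in Hspa5, 65 to 47 bases before the start, against 0.119% of all promoters. The related ERSE-II, ATTGG and CCACG with 1 base between them, was found in Herpud1, 52 to 42 bases before the start, against 0.0365% of all promoters. The core of the unfolded protein response element, TGACGTGG on either strand, which 0.676% of promoters held, was in none of the 10, and the windows of Atf4, Ddit3, Xbp1, Sesn2 and Ppp1r15a held none of these 4 motifs. A match is a description of letters and was not tested for binding.
Chac1 (chr2:119350992-119351291, plus strand): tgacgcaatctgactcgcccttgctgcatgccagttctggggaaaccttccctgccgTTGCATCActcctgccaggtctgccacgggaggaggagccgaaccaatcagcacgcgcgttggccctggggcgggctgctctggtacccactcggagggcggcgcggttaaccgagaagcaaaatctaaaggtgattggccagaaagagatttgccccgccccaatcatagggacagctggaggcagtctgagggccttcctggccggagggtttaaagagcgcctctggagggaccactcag
Trib3 (chr2:152344011-152344310, minus strand): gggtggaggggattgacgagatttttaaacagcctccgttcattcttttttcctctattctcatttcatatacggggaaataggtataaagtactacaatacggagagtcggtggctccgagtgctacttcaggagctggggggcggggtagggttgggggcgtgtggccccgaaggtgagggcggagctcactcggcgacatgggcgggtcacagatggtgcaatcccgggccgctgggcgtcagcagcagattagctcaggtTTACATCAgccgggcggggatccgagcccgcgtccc
Asns (chr6:7693160-7693459, minus strand): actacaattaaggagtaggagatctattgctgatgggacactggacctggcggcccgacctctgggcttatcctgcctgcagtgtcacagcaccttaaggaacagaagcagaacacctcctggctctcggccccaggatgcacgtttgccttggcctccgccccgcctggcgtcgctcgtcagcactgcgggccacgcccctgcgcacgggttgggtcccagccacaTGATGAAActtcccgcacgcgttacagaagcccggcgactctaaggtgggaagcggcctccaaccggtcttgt
Herpud1 (chr8:94386179-94386478, plus strand): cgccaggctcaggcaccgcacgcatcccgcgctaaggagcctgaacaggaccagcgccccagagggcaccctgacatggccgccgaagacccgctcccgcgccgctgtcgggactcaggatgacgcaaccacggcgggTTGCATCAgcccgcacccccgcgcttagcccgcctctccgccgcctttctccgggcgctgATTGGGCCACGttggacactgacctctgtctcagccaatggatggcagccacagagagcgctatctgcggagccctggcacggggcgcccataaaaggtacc
Hspa5 (chr2:34771840-34772139, plus strand): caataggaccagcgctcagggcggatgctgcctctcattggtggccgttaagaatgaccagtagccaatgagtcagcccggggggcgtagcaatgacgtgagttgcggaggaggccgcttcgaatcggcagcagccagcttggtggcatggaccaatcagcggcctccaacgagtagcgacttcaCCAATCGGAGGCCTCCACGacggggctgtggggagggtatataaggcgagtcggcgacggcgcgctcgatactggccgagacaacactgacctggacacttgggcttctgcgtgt

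The table held 13684 cells, 1264 to 2865 per mouse, and 6652599 to 16999625 unique molecular identifiers (UMIs, each 1 captured transcript) per mouse. Median UMIs per cell were 4758.5 to 5253 in the young and 5582 to 7109.5 in the aged mice, and the median share of mitochondrial UMIs was 3.18% to 3.68% in the young and 2.48% to 2.82% in the aged mice. Of 56 marker genes of the named cell types, 52 had their highest level in their own type. Cell names of the young and the aged mice are written in different forms, and 101 cell barcodes occurred in more than 1 mouse, with 3 to 9 shared by mice of the same age and 1 to 10 by mice of different ages. Whatever differed in library handling between the ages cannot be told apart from age.

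To compare ages, UMIs were summed per mouse and cell type, so that the mouse was the replicate, and scaled to CPM (each sum set to the same total) with TMM factors, which hold the bulk of genes level between sums. A call needed a fitted change of 1.5-fold or more and, in edgeR's quasi-likelihood test, a p under 0.05 after Benjamini-Hochberg adjustment over all genes tested. Over the 9 cell types with enough mice there were 90 pairs of gene and type, of which 58 passed the filter on low counts. Aged sums were called higher in 19 of the 58 pairs and lower in 0, against 26 higher and 1 lower at an unadjusted p under 0.05, and DESeq2 called none lower. In the same 9 types 0.219% to 14.7% of all genes tested were called higher and 0.233% to 14.8% lower, as given with each type below. The 58 pairs reuse the same genes and mice and are not independent. The log2 difference was positive in 52 of 58, a count that depends on the scaling. On total UMIs without TMM factors, 6 of 10 were positive in vascular endothelial cells and 8 of 10 in AV cells. With TMM factors all 10 were positive in both. In pericytes 3 of 6 were positive on total UMIs, against 5 with TMM factors, and the other types kept their counts. Of the 19 calls, 8 were in myoepithelial cells, 6 in vascular endothelial cells, 3 in HS cells, 1 in AV cells and 1 in pericytes. Sesn2 and Herpud1 were each called in 3 types, Atf4, Chac1, Trib3, Asns, Xbp1 and Ppp1r15a in 2 and Ddit3 in 1. Hspa5, the most widely measured of the 10, passed the filter in all 9 types and was called in none, with log2 differences from -1.92 to 0.70.

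**Figure D1:**
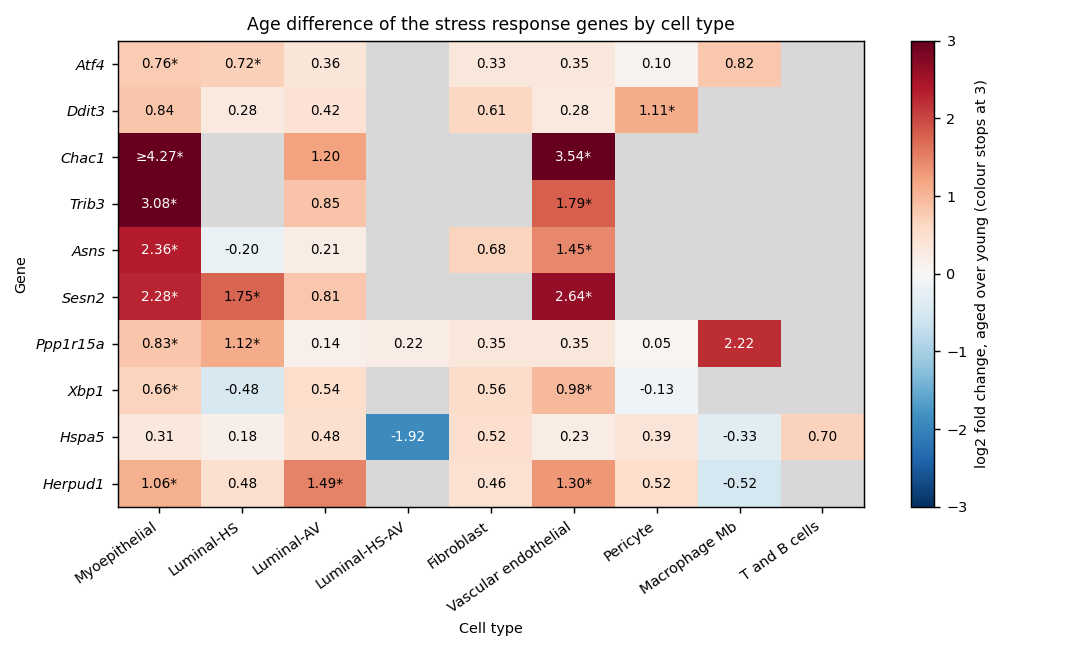
Log2 fold change of aged over young mice (colour, stopping at 3) for the 10 genes (rows) in the 9 cell types compared (columns), with asterisks on called values, grey where a gene was under the count filter, and Chac1 in myoepithelial cells drawn at its lower bound. The calls lie mostly in the myoepithelial (8) and vascular endothelial (6) columns.

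Myoepithelial cells had higher levels of 8 of the 10 genes in the aged mice, where 12.8% of all 6740 genes tested were called higher and 14.8% lower. The median log2 difference of the 10 was 0.95, beside 0.01 over all genes tested, and was the same with Chac1 at the lower bound given below. In 8 of the 10 every aged mouse lay above every young mouse, a pattern that 18.2% of all genes showed. The sums came from 40 to 187 cells in the young and 125 to 662 cells in the aged mice, and the smallest, Young B, held 203450 UMIs. Atf4, the transcription factor at the head of the response, stood at 312, 271 and 400 CPM in Young A, B and C and at 396, 592, 626 and 607 in Aged A, B, C and D. Aged A lay just under Young C and the other aged mice above all young mice, and the log2 difference was 0.76 ± 0.22 (SE, edgeR adjusted p = 0.0151).

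The steepest differences in myoepithelial cells were in targets of ATF4. Chac1, which degrades glutathione, had 0 UMIs in the young mice and 9.01, 32.8, 38.4 and 62.8 CPM in Aged A, B, C and D. Its groups did not overlap, and 220 UMIs in the aged sums against 0 in the young put the aged level at least 19.3-fold higher, taking 3 UMIs over the young group as the floor (edgeR adjusted p = 0.000947). Chac1 passed the count filter through the aged mice alone, so a difference was built into its entry among the genes tested. Trib3, Asns and Sesn2, given next, also needed the aged mice to pass, since not every young sum reached the level the filter asks for. Their calls carry part of the same built-in difference, as do the counts and the median above. Atf4, Ppp1r15a, Herpud1 and Xbp1, the other called genes, were high enough in the young mice as well. Trib3, a pseudokinase that restrains ATF4 signalling, stood at 2.85, 13.8 and 3.23 CPM in Young A, B and C and at 32.5, 33.5, 38.4 and 53.6 in Aged A, B, C and D. Every aged mouse was above the highest young mouse, Young B, whose value rested on 3 UMIs, and the log2 difference was 3.08 ± 0.48 (SE, edgeR adjusted p = 0.00026).

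Asns, which makes asparagine, stood at 17.1, 0 and 16.1 CPM in Young A, B and C and at 37.0, 54.3, 80.1 and 119 in Aged A, B, C and D. The groups did not overlap, Aged D was highest and Aged A lowest of the aged, and the log2 difference was 2.36 ± 0.49 (SE, edgeR adjusted p = 0.00209). Sesn2, a leucine-binding inhibitor of the growth kinase complex mTORC1, stood at 6.65, 9.17 and 35.5 CPM in Young A, B and C and at 56.8, 52.1, 76.9 and 87.0 in Aged A, B, C and D. Young C was well above the other young mice and still under every aged mouse, and the log2 difference was 2.28 ± 0.44 (SE, edgeR adjusted p = 0.00111).

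Ppp1r15a (GADD34), the inducible subunit that directs a phosphatase to eIF2alpha and so ends the response, stood at 143, 216 and 213 CPM in Young A, B and C and at 299, 254, 400 and 367 in Aged A, B, C and D. These groups did not overlap either, with a log2 difference of 0.83 ± 0.23 (SE, edgeR adjusted p = 0.0122). Ddit3 (CHOP), a transcription factor linked to cell death under lasting ER stress, stood at 20.9, 22.9 and 29.1 CPM in Young A, B and C and at 34.3, 32.4, 38.4 and 62.1 in Aged A, B, C and D. The aged mice were all above the young mice, but the log2 difference of 0.84 ± 0.33 (SE) missed the threshold (edgeR adjusted p = 0.0667), and it passed when genes of low counts were kept in the fit (0.96) or Aged B was left out (0.98).

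Of the ER arm, Herpud1 and Xbp1 were higher in aged myoepithelial cells and Hspa5 was not called. Herpud1, which serves ER-associated degradation, stood at 49.4, 78.0 and 77.5 CPM in Young A, B and C and at 110, 107, 135 and 180 in Aged A, B, C and D, a log2 difference of 1.06 ± 0.26 (SE, edgeR adjusted p = 0.00692). Xbp1, whose spliced form encodes a transcription factor of ER expansion, stood at 56.0, 50.4 and 77.5 CPM in Young A, B and C and at 88.3, 85.9, 115 and 100.03 in Aged A, B, C and D, a log2 difference of 0.66 ± 0.23 (SE, edgeR adjusted p = 0.0385). Hspa5 (BiP), the main ER chaperone, stood at 459, 715 and 668 CPM in Young A, B and C and at 698, 814, 745 and 762 in Aged A, B, C and D. Aged A lay under Young B, and the log2 difference of 0.31 ± 0.20 (SE) was within the spread between mice (edgeR adjusted p = 0.254).

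The number of myoepithelial calls depended on single mice and on depth. Without Young A, which held most of the young cells, 4 of the 10 genes were called, while 6 were called without Young B, Aged C or Aged D. Without Aged B, Aged C or Aged D only 9 of the 10 were tested. Chac1 fell under the count filter in these 3 fits. With every sum thinned to the 203450 UMIs of the smallest, 6 of the 10 passed the count filter and 0 were called, as the share of all genes called higher fell to 1.42%. In the same sums the mitochondrial share was 4.38% to 5.68% in the young and 3.02% to 3.88% in the aged mice, and 5 of 7 myoepithelial markers (Acta2, Krt5, Myh11, Myl9 and Mylk) were lower and Krt17 higher in the aged mice. The summed level of the 7 was 13611 to 22105 CPM in the young and 12973 to 14970 in the aged mice. The 4 fibroblast markers summed to 27.5 to 209 CPM in the young and 3.20 to 25.2 in the aged mice, and 3 of them (Col1a1, Col1a2 and Col3a1) were called lower. The 6 AV markers summed to 1261 to 1435 in the young and 1174 to 1749 in the aged mice, with Csn3 and Ltf called higher and Mfge8 lower. The 5 HS markers summed to 45.6 to 101 in the young and 9.61 to 37.0 in the aged mice, with Prlr called lower. Of 19 genes known to rise during warm dissociation, Ier2 and Ier3 were called higher and Btg2, Dnaja1, Fosb and Nr4a1 lower, and their summed level, 14243 to 18908 in the young and 15141 to 19431 in the aged mice, overlapped between ages. The lymphatic endothelial list summed to 0 to 3.80 in the young and 0.728 to 471 in the aged mice. Markers of dendritic cells, macrophages, NK cells and T and B cells were at most 12.9 CPM, with Flt3, Adgre1, Mrc1 and Cd79b at 0. The part of these values in the results was not tested.

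Shares of cells with at least 1 UMI were also compared by age. Chac1 was detected in 0 of 281 young myoepithelial cells, which allows a share of cells with a UMI of up to 1.07% by counting error alone, with the cells of 3 mice pooled and the spread between mice left out, and in 12.4% ± 6.75 (SD, n = 4 mice) of the aged cells. With each cell thinned to 2000 UMIs the aged share was 6.90% ± 3.40. In aged fibroblasts of the same mice the unthinned share was 0.207% ± 0.413, at median depths of 3757 to 6038 UMIs per cell against 3797 to 4856 in aged myoepithelial cells. Before thinning, the means in young and aged cells were 3.65% and 14.1% for Trib3, 6.12% and 24.3% for Asns and 9.09% and 24.4% for Sesn2. After thinning, Trib3 was detected in 1.01% ± 1.32 of young (n = 3) and 6.70% ± 0.982 of aged myoepithelial cells, Asns in 3.02% ± 2.74 and 12.2% ± 4.70, and Sesn2 in 3.26% ± 5.198 and 11.9% ± 2.26. For Chac1, Trib3 and Asns every aged mouse had the higher thinned share, and for Sesn2 the lowest aged mouse, at 10.3%, was above the highest young mouse, at 9.26%. These shares are descriptions with no test.

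**Figure D2:**
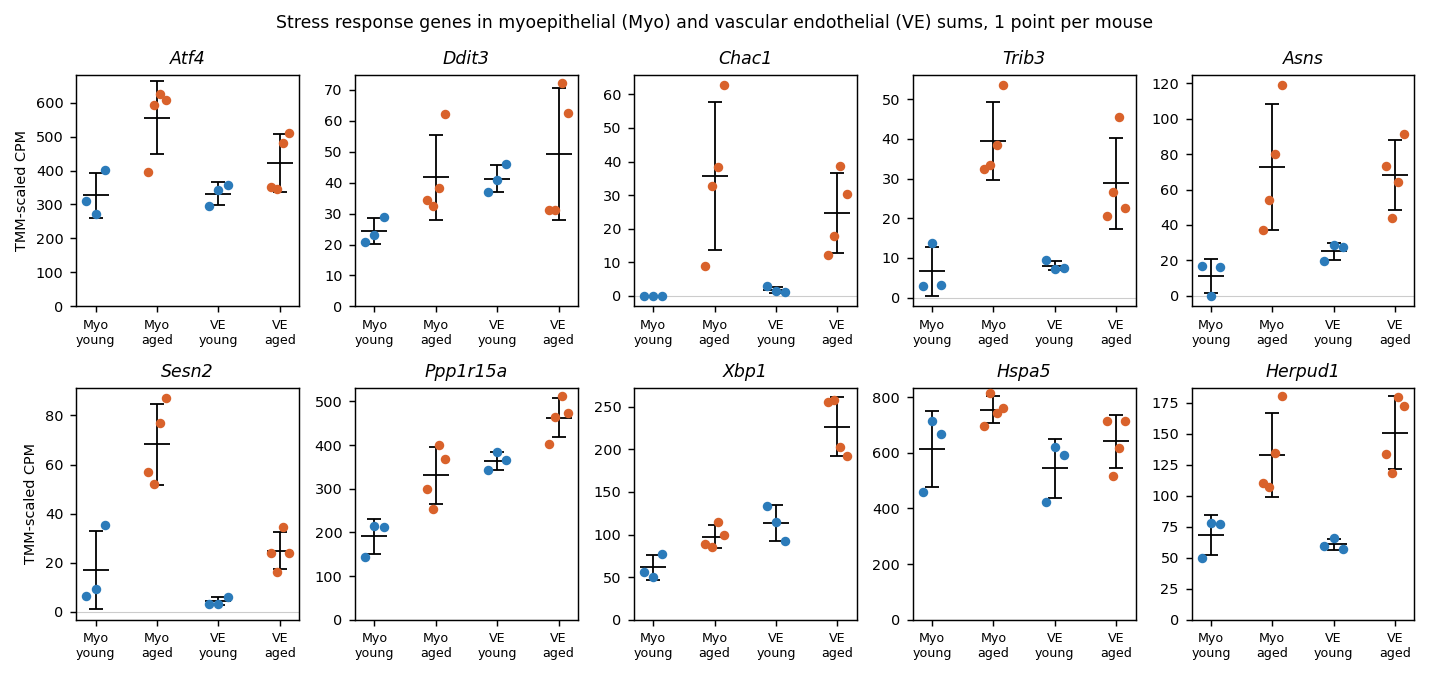
TMM-scaled CPM (y axis, linear) of each of the 10 genes in myoepithelial (Myo) and vascular endothelial (VE) sums, 1 point per mouse, with lines at the group mean and bars of 1 SD (young blue, n = 3, aged orange, n = 4). Aged points lie above all young points for Chac1, Trib3, Asns, Sesn2, Herpud1 and Xbp1 in both cell types, and overlap the young points for Atf4 and Hspa5.

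Vascular endothelial cells, which line blood vessels, had higher levels of 6 of the 10 genes in the aged mice, where 14.7% of all 7864 genes tested were called higher and 12% lower. The median log2 difference of the 10 was 1.14, beside -0.05 over all genes, and every aged mouse lay above every young mouse in 7 of the 10, against 18.4% of all genes. All 6 calls, for Chac1, Sesn2, Trib3, Asns, Herpud1 and Xbp1, held without any one mouse, with every sum thinned to the smallest and with DESeq2. The sums came from 145 to 409 cells in the young and 171 to 285 cells in the aged mice. Chac1 stood at 2.89, 1.46 and 1.24 CPM in Young A, B and C and at 12.1, 17.8, 38.7 and 30.2 in Aged A, B, C and D, a log2 difference of 3.54 ± 0.49 (SE, edgeR adjusted p = 0.000134). The young values rested on 7, 3 and 1 UMIs and the aged values on 10 to 40. In vascular cells Chac1 and Sesn2 passed the count filter through the aged mice alone, so a difference was built into their entry among the genes tested.

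Sesn2 stood at 3.30, 3.40 and 6.21 CPM in Young A, B and C and at 24.1, 16.3, 34.7 and 24.1 in Aged A, B, C and D, with a log2 difference of 2.64 ± 0.36 (SE, edgeR adjusted p = 0.000128). Trib3 stood at 9.49, 7.30 and 7.45 CPM in Young A, B and C and at 20.5, 26.7, 45.6 and 22.6 in Aged A, B, C and D, with a log2 difference of 1.79 ± 0.32 (SE, edgeR adjusted p = 0.000922). Both genes were highest in Aged C, and neither showed overlap between ages. Asns stood at 19.8, 28.7 and 27.3 CPM in Young A, B and C and at 73.5, 43.8, 64.4 and 91.3 in Aged A, B, C and D, with a log2 difference of 1.45 ± 0.26 (SE, edgeR adjusted p = 0.000907). Its lowest aged mouse, Aged B, was still above every young mouse.

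In the ER arm, Herpud1 stood at 59.4, 65.7 and 57.1 CPM in the vascular sums of Young A, B and C and at 134, 118, 179 and 172 in Aged A, B, C and D, a log2 difference of 1.30 ± 0.18 (SE, edgeR adjusted p = 0.000136). Xbp1 stood at 134, 115 and 91.9 CPM in Young A, B and C and at 256, 258, 202 and 192 in Aged A, B, C and D, a log2 difference of 0.98 ± 0.17 (SE, edgeR adjusted p = 0.000834). Neither gene overlapped between ages. Hspa5 stood at 424, 621 and 591 CPM in Young A, B and C and at 715, 518, 617 and 714 in Aged A, B, C and D, and its log2 difference of 0.23 ± 0.17 (SE) was within the spread (edgeR adjusted p = 0.325).

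The other 3 genes were not called in vascular cells. Atf4 stood at 294, 343 and 359 CPM in Young A, B and C and at 352, 347, 480 and 510 in Aged A, B, C and D, a log2 difference of 0.35 ± 0.17 (SE, edgeR adjusted p = 0.135). Ddit3 stood at 37.1, 40.9 and 45.9 CPM in Young A, B and C and at 31.3, 31.2, 72.4 and 62.6 in Aged A, B, C and D, a log2 difference of 0.28 ± 0.28 (SE, edgeR adjusted p = 0.486). Aged C and D were above all young mice for both genes, and for Ddit3 Aged A and B were below them. Ppp1r15a stood at 342, 384 and 365 CPM in Young A, B and C and at 403, 464, 513 and 472 in Aged A, B, C and D, with no overlap, a log2 difference of 0.35 ± 0.13 (SE) and an edgeR adjusted p of 0.0679. Dividing by total UMIs with no TMM factors lowered the median of all genes in vascular cells by 0.36, and on that scale the log2 differences of Hspa5, Ddit3, Atf4 and Ppp1r15a were -0.13, -0.086, -0.011 and -0.00838, while the 6 calls kept their direction and call. Mitochondrial shares were 2.87% to 2.93% in the young and 2.23% to 2.29% in the aged vascular cells. The 19 dissociation genes summed to 26174 to 30817 CPM in the young and 27427 to 29714 in the aged mice, with Ier3 and Zfp36 called higher and Btg2, Egr1 and Fosb lower. The 4 fibroblast markers summed to 37.9 to 134 in the young and 13.3 to 37.7 in the aged mice (Col1a1 and Col3a1 called lower). The 3 pericyte markers summed to 83.7 to 313 CPM in the young and 5.94 to 74.4 in the aged mice, the 7 myoepithelial markers to 134 to 215 and 186 to 335 (Krt14 and Krt17 called higher), and the 4 dendritic cell markers to 10.7 to 29.8 and 107 to 120 (Traf1 called higher, Flt3 at 0). The part of these values in the results was not tested.

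In HS cells, which carry hormone receptors, 8 of the 10 genes passed the count filter and 3 were called higher and 0 lower in the aged mice, against 3.93% and 2.33% of all 8457 genes. Ppp1r15a stood at 138, 146 and 143 CPM in Young A, B and C and at 288, 210, 430 and 313 in Aged A, B, C and D, a log2 difference of 1.12 ± 0.22 (SE, edgeR adjusted p = 0.0167). Atf4 stood at 129, 132 and 139 CPM in Young A, B and C and at 181, 212, 270 and 215 in Aged A, B, C and D, a log2 difference of 0.72 ± 0.17 (SE, edgeR adjusted p = 0.0312). Neither gene overlapped between ages, and Aged C was highest for both. Sesn2 stood at 2.34, 1.58 and 2.25 CPM in Young A, B and C and at 9.87, 6.51, 6.91 and 5.31 in Aged A, B, C and D, a log2 difference of 1.75 ± 0.37 (SE, edgeR adjusted p = 0.022). Its groups did not overlap, on 3 to 14 UMIs per young and 4 to 13 per aged mouse.

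The HS calls depended on which mice entered. Without Young A, Young B or Young C none of the 3 was called, without Aged C 1 was, and with all sums thinned to the smallest none was. Without Aged A, Aged B or Aged D 2 were called. Sesn2 passed the count filter through the aged mice alone, so a difference was built into its entry among the genes tested. It fell under the filter, and was not tested, without Aged A, Aged B or Aged C. On total UMIs Atf4 lost its call, at a log2 difference of 0.60. The median log2 difference of the 8 genes tested was 0.38, beside 0.02 over all genes, and the 3 called genes were those without overlap, against 10.9% of all genes. Asns (-0.20) and Xbp1 (-0.48) had negative differences in HS cells that passed no test. Chac1, under the count filter, had 3 UMIs in the young and 13 in the aged HS sums, a ratio per UMI of 10.4 (exact 95% limits 2.85 and 56.8, for counting error only). Myoepithelial markers summed to 25.9 to 46.9 CPM in young and 47.0 to 166 in aged HS sums, and Krt14 and Krt17 were called higher and Acta2 lower there. The 19 dissociation genes summed to 16418 to 19631 in young and 18352 to 27395 in aged HS sums, with Ier3 called higher and Dnaja1 lower. The part of this in the results was not tested.

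In AV cells all 10 genes were tested, all 10 had positive log2 differences, with a median of 0.51 beside 0.02 over all genes, and only Herpud1 was called, higher, against 2.9% of all 11012 genes higher and 3.26% lower. Chac1 had a UMI in only 2 young mice and needed the aged mice to pass the count filter. A difference was thus built into its part of this count and median. Herpud1 stood at 20.7, 43.0 and 11.7 CPM in Young A, B and C and at 60.1, 50.2, 70.5 and 68.3 in Aged A, B, C and D, a log2 difference of 1.49 ± 0.36 (SE, edgeR adjusted p = 0.0362). The groups did not overlap for Herpud1 or Trib3, against 11.7% of all genes, but the young Herpud1 values ranged widely, and the call was lost without Young A, Young C, Aged A, Aged C or Aged D, on total UMIs and after thinning. In the same sums all 5 HS markers were called lower (168 to 254 CPM in the young and 34.3 to 43.0 in the aged mice), as were all 4 fibroblast markers (28.1 to 156 and 1.37 to 5.97), Eng, Csf1r and Wfdc18. The AV markers Csn3, Elf5 and Mfge8 were called higher, and of the 19 dissociation genes Hspa8 was, while the sum of the 19 overlapped (26614 to 40947 and 28096 to 48661). The part of these values in the result was not tested.

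In pericytes, contractile cells around capillaries, 6 genes were tested and Ddit3 alone was called higher, against 7.19% of all 2601 genes higher and 4.61% lower. The median log2 difference of the 6 was 0.24, beside 0.01 over all genes, and 2 of them, Ddit3 and Hspa5, did not overlap between ages, against 12.8% of all genes. Ddit3 stood at 58.4, 55.8 and 63.5 CPM in Young A, B and C and at 119, 159, 119 and 105 in Aged A, B, C and D, a log2 difference of 1.11 ± 0.26 (SE, edgeR adjusted p = 0.015). There was no overlap, and the call was lost without Young A, Young B or Aged B, with low genes kept in the fit and after thinning. Ddit3 needed the aged mice to pass the count filter, since Young B lay just under the level the filter asks for. Its call and lack of overlap carry part of that built-in difference. Chac1, under the count filter, had 0 UMIs in young and 4 in aged pericytes, too few for a fold. In the same sums the 7 myoepithelial markers, some of which pericytes also express, summed to 2306 to 2851 CPM in the young and 7077 to 14927 in the aged mice. The 19 dissociation genes summed to 29823 to 34012 in the young and 38586 to 47014 in the aged mice, without overlap, with 6 called higher (Hspa1a, Hspa1b, Hspa8, Ier2, Ier3 and Jun) and Fosb lower. The 4 fibroblast markers summed to 366 to 488 in the young and 55.8 to 218 in the aged mice, the 5 vascular endothelial markers to 1738 to 1925 and 862 to 1520 (Cdh5 called lower), and the 6 AV markers to 386 to 744 and 712 to 3041 (Csn3, Mfge8 and Trf called higher). The part of these values in the results was not tested.

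Fibroblasts, Mb macrophages, HS-AV cells and T and B cells gave 0 calls among 7, 4, 2 and 1 genes tested, against 2.07%, 0.931%, 0.324% and 0.219% of all genes called higher and 1.11%, 0.233%, 1.13% and 0.438% called lower, and DESeq2 gave 0 in each as well. At an unadjusted p under 0.05 there were 2 higher in fibroblasts (Ddit3 and Hspa5), 1 higher in Mb macrophages (Ppp1r15a) and 1 lower in HS-AV cells (Hspa5). In fibroblasts all 7 log2 differences were positive, with a median of 0.52 beside 0.00 over all genes, and 3 of the 7 showed no overlap against 7.02% of all genes. Every aged mouse lay above every young mouse for none of the genes tested in Mb macrophages, HS-AV cells and T and B cells, against 8.03%, 7.12% and 7% of all genes. Fibroblast Ddit3 stood at 41.0, 48.5 and 49.1 CPM in Young A, B and C and at 61.4, 54.5, 90.1 and 101 in Aged A, B, C and D. The aged sums held 15 to 121 fibroblasts each, and in the same sums 3 of the 19 dissociation genes were called higher and 1 lower and the 4 fibroblast markers summed to 6668 to 10004 in the young and 4237 to 5896 in the aged mice, whose part was not tested. Ppp1r15a in Mb macrophages ranged from 256 to 965 CPM in the young and from 571 to 6973 in the aged mice, whose sums held 3 to 9 cells, and this log2 difference of 2.22 did not pass (edgeR adjusted p = 0.208).

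Whether the age difference itself differed between cell types was tested with an interaction term, with the mouse as a block, and called at an adjusted p under 0.05 alone. The difference in myoepithelial cells was larger than in AV cells for 3 of the 10 genes and smaller for 0, against 5.82% and 3.43% of 9434 genes. These were Trib3, by 2.51 ± 0.67 on the log2 scale (SE, edgeR adjusted p = 0.0258), Asns, by 2.33 ± 0.65 (adjusted p = 0.032) and Ppp1r15a, by 0.76 ± 0.23 (adjusted p = 0.0405). Without Young A or Young C none of the 10 genes was called, without Young B or Aged C 1 was, and without Aged B 4 were. Myoepithelial cells also exceeded HS cells for 3 genes and fell short for 0, against 4.72% and 4.8% of 8480 genes: Trib3, by 3.81 ± 0.73 (SE, edgeR adjusted p = 0.00265), Asns, by 2.37 ± 0.48 (adjusted p = 0.00391) and Xbp1, by 1.24 ± 0.35 (adjusted p = 0.0284). Trib3 needed the aged sums to pass the count filter in both fits, in the HS fit those of myoepithelial cells. A difference was therefore built into its entry among the genes tested. Chac1, at 0 in the young myoepithelial sums, was not called against AV cells (adjusted p = 0.0769) or HS cells (adjusted p = 0.362). Between HS and AV cells 0 genes were called by edgeR, against 1.77% of all genes called higher and 0.64% lower, with 2 higher and 3 lower at an unadjusted p under 0.05. Between vascular endothelial cells and fibroblasts 0 were called, against 3.71% higher and 1.99% lower, with 2 higher at an unadjusted p under 0.05 (Trib3 and Herpud1).

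The wider pathway was described with 4 further lists: 48 other genes known to respond to eIF2alpha and ATF4, 27 ER chaperones and folding enzymes, 38 genes of ER-associated degradation and the secretory pathway, and 16 kinases, phosphatase subunits and ER sensors. Genes of these lists passed the same count filter, and those low at one age needed the mice of the other age to pass. Examples are Gdf15 in myoepithelial sums (young mean 5.57 CPM) and Cbs in HS sums (young mean 4.03 CPM). The counts, medians and named genes below carry part of this built-in difference. Most calls in the ATF4-responsive list were in the same 2 cell types as those of the 10 genes. In myoepithelial cells 22 of its 40 tested genes were called higher and 3 lower, against 12.8% and 14.8% of all genes, with a median log2 difference of 0.98. In vascular endothelial cells 22 of 35 were called higher and 0 lower, against 14.7% and 12% of all genes, with a median of 0.87. By role, 8 of 12 aminoacyl-tRNA synthetases, which charge tRNAs, and 4 of 6 amino acid transporters tested were higher in aged myoepithelial cells, and 6 of 11 and 5 of 6 in aged vascular cells, with 0 lower. Of the serine and one-carbon enzymes, 2 of 5 tested were higher and 1 lower in myoepithelial cells. In vascular cells 1 of 3 was higher and 0 lower.

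The ATF4-responsive genes with the largest non-overlapping differences in myoepithelial cells were Mthfd2 (log2 difference 3.13), a mitochondrial folate enzyme, Sqstm1 (2.79), an autophagy receptor, Eif4ebp1 (2.62), a repressor of translation, Yars (2.45), the tyrosine tRNA synthetase, and Gdf15 (2.34), a stress-induced secreted factor. In vascular cells they were Slc7a11 (3.37), a cystine transporter, Mthfd2 (2.19), Slc7a5 (2.15), a transporter of large neutral amino acids, Sqstm1 (1.99) and Nupr1 (1.86), a stress-induced nuclear protein. The 3 genes that were lower in aged myoepithelial cells, named here after their values were seen, were Phgdh (-1.59), the entry enzyme of serine synthesis, Stc2 (-1.43) and Gpt2 (-1.41). In HS cells the ATF4-responsive list had 2 higher and 3 lower of 36, against 3.93% and 2.33% of all genes. It had 0 and 1 of 41 in AV cells, against 2.9% and 3.26%. Its counts were 2 and 0 of 30 in fibroblasts, against 2.07% and 1.11%, and 1 and 0 of 16 in pericytes, against 7.19% and 4.61%. In HS cells the 3 lower genes were all tRNA synthetases, of which Iars (-1.78) had the largest difference, and Cbs (1.62) and Ddit4 (1.10) were higher. Stc2 (-2.06) was the lower gene in AV cells, Sqstm1 (1.30) and Cebpb (1.04) the higher genes in fibroblasts and Atf3 (0.88) the higher gene in pericytes.

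ER folding genes gave other counts. In aged myoepithelial cells 7 of 24 tested were called lower and 1 higher, against 14.8% and 12.8% of all genes, with a median log2 difference of -0.57, and in vascular cells 1 and 1 of 24, against 12% and 14.7% of all genes, with a median of -0.01. Named after their values were seen, the lower genes in myoepithelial cells included Fkbp11 (-1.90), Cnpy2 (-1.67), the disulfide isomerases P4hb (-0.77) and Pdia6 (-0.74), and Hsp90b1 (-0.62), the ER chaperone GRP94, and the higher gene was Dnajb9 (0.79), a cochaperone of BiP. Of the degradation and secretory list, 4 of 32 tested were higher and 5 lower in myoepithelial cells, with a median of -0.25 and shares near the 12.8% and 14.8% of all genes. In vascular cells 3 of 33 were higher and 0 lower, against 14.7% and 12% of all genes. In HS cells 4 of 34 were higher, among them Wfs1 (1.14), and 1 of 27 folding genes was, Dnajc10 (1.33), against 3.93% of all genes. Of the kinases and sensors, 3 of 11 tested were higher and 1 lower in myoepithelial cells, against 12.8% and 14.8% of all genes. In vascular cells 2 and 2 of 13 were, near the 14.7% and 12% of all genes. Creb3l1, a transcription factor anchored in the ER membrane, was higher in both (2.22 and 1.65), Atf6 was higher in myoepithelial cells (2.14), and Eif2ak2, the kinase PKR, was lower in both (-1.60 and -1.38), all 3 named after their values were seen. In AV cells 1 of 15 was higher, Nck1 (1.07), against 2.9% of all genes. In pericytes 1 of 14 folding genes was lower, Cnpy2 (-1.43), against 4.61% of all genes. All other counts of these 4 lists were 0. The counts of lower genes depend on the scaling: on total UMIs, summed over the 9 cell types, 22 folding genes were lower and 1 higher.

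**Figure D3:**
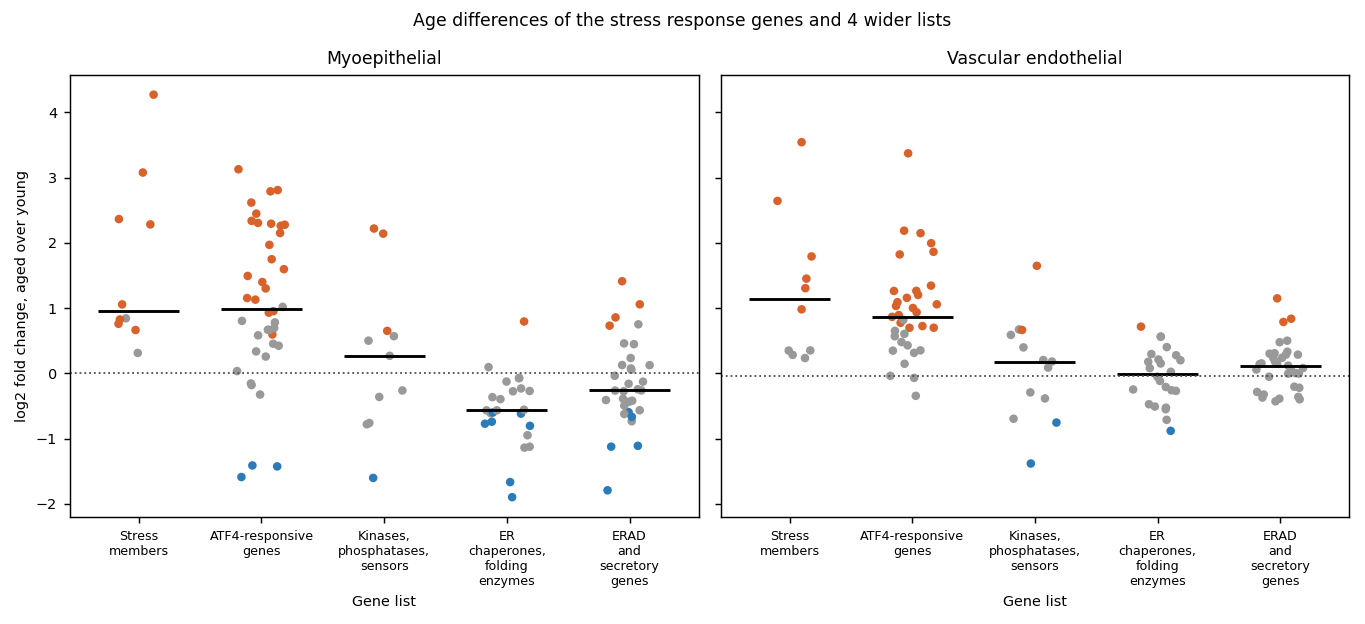
Log2 fold change of aged over young mice (y axis) for each tested gene (points) of the 10 genes and the 4 wider lists in myoepithelial and vascular endothelial cells, orange where called higher, blue where called lower and grey otherwise, with a bar at each list's median, the median of all genes as a dotted line and Chac1 of myoepithelial cells at its lower bound. In both panels the 10 genes and the ATF4-responsive list sit mostly above the line, while the folding list of myoepithelial cells sits mostly below it, at a median of -0.57.

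Levels were also compared among the 3 main epithelial types within the same 7 mice (mouse as a block, called as above). Myoepithelial cells were called higher for 8 genes against HS cells and for 5 against AV cells, and Xbp1 was the 1 gene called lower in them. Ppp1r15a was higher in AV than in myoepithelial cells by 0.45 on the log2 scale (edgeR adjusted p = 0.0165), under the fold minimum. HS cells were higher than myoepithelial cells for 1 gene and lower for 8, against 32% and 27% of all 10079 genes tested. AV cells were higher than myoepithelial cells for 1 and lower for 5, against 27.1% and 22.7%, and AV cells were higher than HS cells for 5 and lower for 0, against 20.4% and 22.1%. The median log2 differences of the 10 genes were -1.17, -0.77 and 0.72 in that order, beside 0.08, 0.09 and -0.01 over all genes.

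Sesn2, in CPM of total UMIs, ran from 1.59 to 10.6 in HS cells (median 4.73), from 4.04 to 17.9998 in AV cells (median 13.3) and from 6.61 to 75.9 in myoepithelial cells (median 49.3). Its order of HS, AV and myoepithelial cells held in all 7 mice, with log2 differences of 1.40 ± 0.28 (AV against HS), -1.82 ± 0.24 (AV against myoepithelial) and -3.22 ± 0.28 (HS against myoepithelial, edgeR adjusted p = 3.29e-09). Atf4 ran from 133 to 265 CPM in HS cells (median 190), from 280 to 440 in AV cells (median 355) and from 290 to 602 in myoepithelial cells (median 403). HS cells were lowest in all 7 mice, with log2 differences of 1.16 ± 0.12 for AV against HS and -1.34 ± 0.12 for HS against myoepithelial cells, while AV and myoepithelial cells were not called different (-0.18 ± 0.12, edgeR adjusted p = 0.218). Ddit3 was likewise lower in HS cells than in AV cells (1.03 ± 0.19 for AV against HS) and than in myoepithelial cells (-1.02 ± 0.21) in all 7 mice, and so was Hspa5 (0.74 ± 0.13 and -1.13 ± 0.13).

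Xbp1 went the other way. It ran from 54.1 to 111 CPM in myoepithelial cells (median 81.3), from 92.9 to 190 in AV cells (median 131) and from 95.1 to 244 in HS cells (median 177). AV cells were above myoepithelial cells in 7 of 7 mice (log2 difference 0.77 ± 0.25, edgeR adjusted p = 0.0124) and HS cells, on the TMM scale, in 5 of 7 (1.08 ± 0.26, edgeR adjusted p = 0.000907). The differences of the amino acid and redox targets depended on which mice entered. In all 7 mice the log2 differences of AV against myoepithelial cells were -2.57 for Chac1, -2.16 for Trib3 and -1.80 for Asns, while in the young mice Chac1 had means of 2.90 CPM in AV cells and 0 in myoepithelial cells. In the young mice alone 1 gene was called lower and 2 higher in AV than in myoepithelial cells, 4 lower in HS than in myoepithelial cells, and the Asns difference of HS against myoepithelial cells turned from -1.15 to 0.58. In the aged mice alone no gene was called higher in HS than in myoepithelial cells, against 1 (Xbp1) in all 7. Of the wider lists, the largest called differences with 1 direction in every mouse were, for AV against HS cells, Cbs (-5.99), Stc2 (-5.59), Pmaip1 (-2.91), Cebpb (2.49) and Phgdh (-2.40). For AV against myoepithelial cells they were Mthfd2 (-3.81), Vegfa (-3.04), Kdelr3 (-2.98), Nupr1 (2.51) and Slc1a5 (-2.41), and for HS against myoepithelial cells Stc2 (6.26), Nupr1 (4.50), Cbs (4.40), Mthfd2 (-3.20) and Sdf2l1 (3.04).

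**Figure D4:**
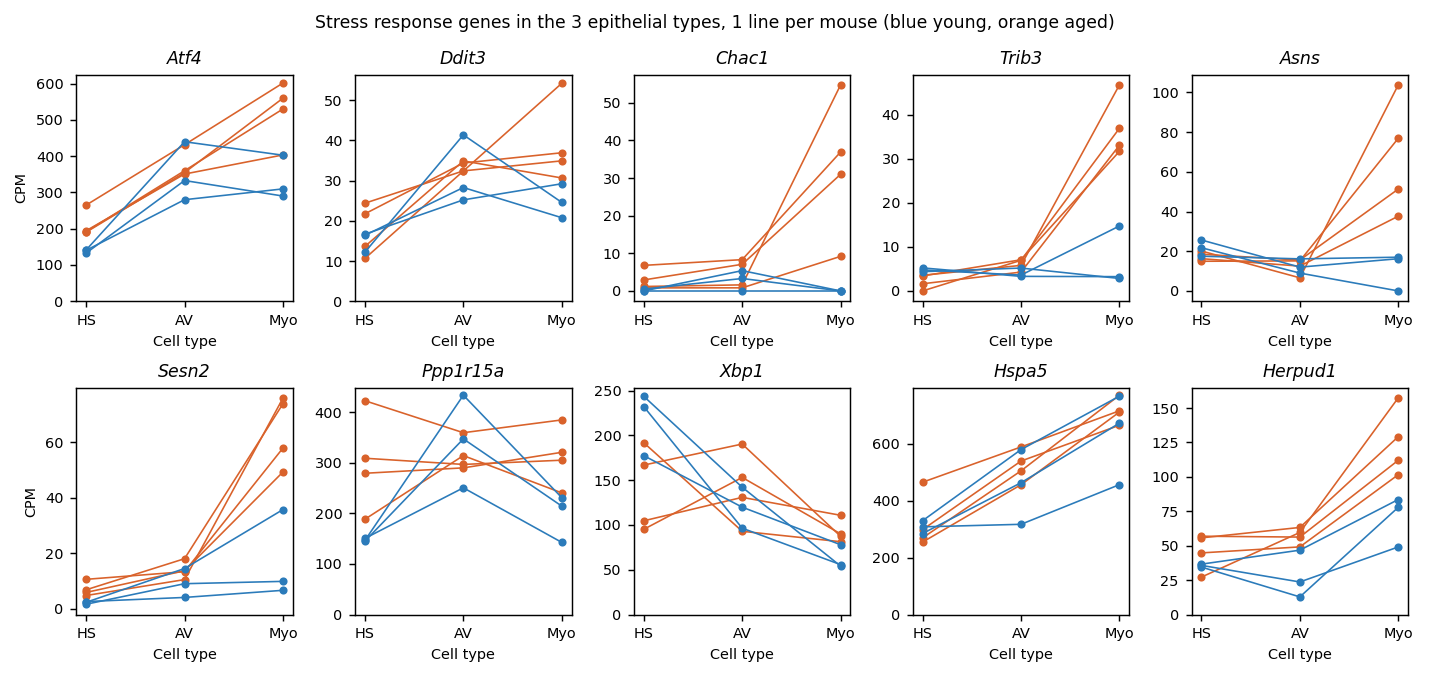
CPM (y axis, linear) of each of the 10 genes in HS, AV and myoepithelial (Myo) cells, 1 line per mouse (young blue, aged orange). Myo lies above HS in all 7 mice for Atf4, Ddit3, Hspa5, Herpud1 and Sesn2, while for Chac1, Trib3 and Asns the highest Myo points are those of aged mice.

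In the 3 young mice the mixed HS-AV cells were set against both HS and AV cells, and a call needed a difference of at least 1.25-fold from both in the same direction. Of the 8 genes tested 0 were called by edgeR, against 1.05% of 9487 genes higher and 0.137% lower, with 0 at an unadjusted p under 0.05 in both contrasts and the same direction and 0 by DESeq2. Against AV cells alone HS-AV cells were lower for Atf4 (-0.88), Ppp1r15a (-0.81) and Hspa5 (-0.64). Atf4 stood at 134, 225 and 238 CPM in HS-AV cells of Young A, B and C, beside 135, 139 and 146 in HS cells and 292, 367 and 480 in AV cells. HS-AV cells lay between the other types in Young B and C, and just under HS cells in Young A. Between Ma and Mb macrophages of the young mice none of 6 genes was called at the minimum of 2-fold by edgeR, against 15.7% of 2045 genes higher in Ma and 11.8% lower, with 2 lower at an unadjusted p under 0.05 and 0 by DESeq2. Hspa5 was at 497, 580 and 542 CPM in Ma and 832, 1277 and 695 in Mb macrophages, higher in Mb in each mouse, with a log2 difference of -0.74 ± 0.25 (SE, edgeR adjusted p = 0.0447) that was under the minimum.

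Across all 13 cell types the 10 genes had their highest mean levels in 5 types. In CPM of total UMIs, as mean ± SD over mice, myoepithelial cells were highest over all mice for Atf4 (442 ± 123, n = 7), Chac1 (18.8 ± 22.1), Trib3 (24.2 ± 17.3), Hspa5 (679 ± 107) and Sesn2 (44.1 ± 28.2). Pericytes were highest for Ddit3 (82.9 ± 29.9, n = 7), vascular endothelial cells for Asns (46.6 ± 20.1), HS cells for Xbp1 (173 ± 57.2), and Mb macrophages for Ppp1r15a (1567 ± 1824) and Herpud1 (154 ± 136). These means pool both ages, and the leading types differed by age. In the aged mice alone myoepithelial cells had the highest mean of Atf4 (524), Chac1 (32.97), Trib3 (37.1), Asns (67.4) and Sesn2 (64.2). In the young mice alone they led only for Sesn2 (17.4 ± 16.0, n = 3). Young pericytes then led for Atf4 (422 ± 66.8, beside 334 ± 60.1 in myoepithelial cells) and Asns (34.4), dendritic cells for Chac1 (5.74), lymphatic endothelial cells for Trib3 (15.7, n = 2), Mb macrophages for Hspa5 (771) and Herpud1 (181), Ma macrophages for Ddit3 (76.5) and Ppp1r15a (889), and HS cells for Xbp1 (218). HS-AV cells had the lowest pooled mean of Atf4 (155 ± 61.2, n = 6), but their 3 aged sums held only 4 to 6 cells each. Their mean of Atf4 was 208 in the young and 102 in the aged mice, and that of Hspa5 332 and 85.5, and in young mice HS cells were lower for both (138 and 307). Among the 8 types with enough cells in all 7 mice, none of the 70 pairs of neighbours in the order of mean levels differed after Benjamini-Hochberg adjustment (exact two-sided sign-flip permutation test over mice, smallest possible p 0.0156), and 7 pairs did at an unadjusted p under 0.05. With that smallest p, adjustment over 70 pairs could hardly be passed, so the count says nothing of whether neighbours differ.

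**Figure D5:**
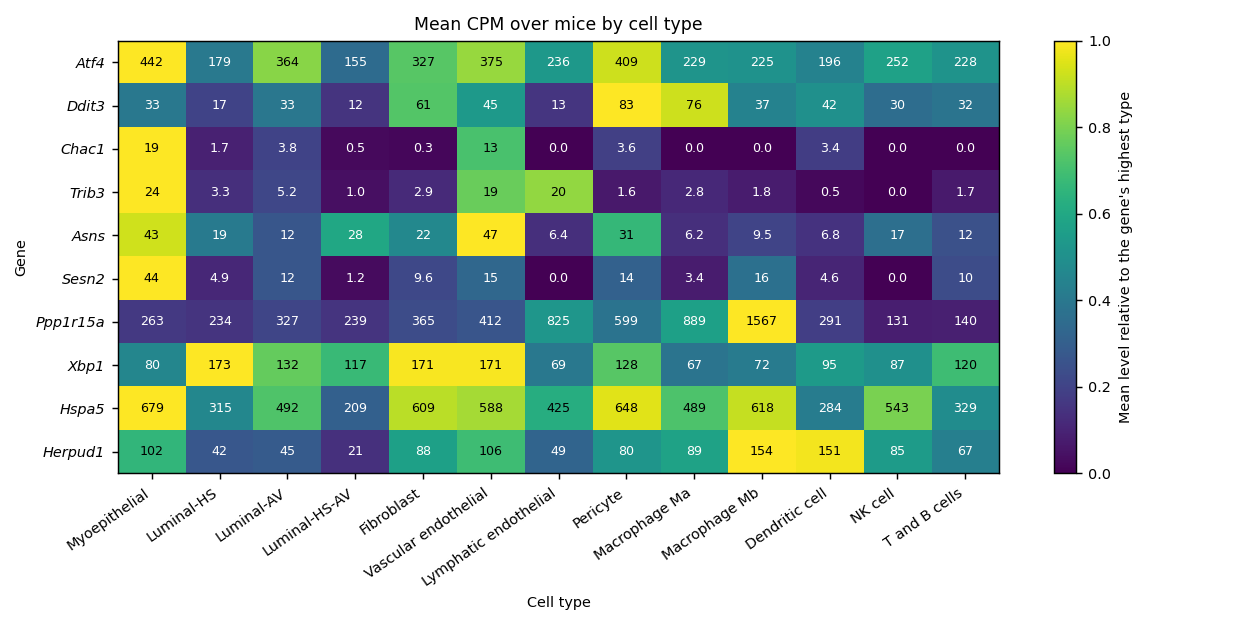
Mean CPM over mice of each of the 10 genes (rows) in the 13 cell types (columns), as a share of the gene's highest type (colour from 0 to 1), with the mean printed in each cell. Over both ages pooled, Chac1, Trib3 and Sesn2 are highest in myoepithelial cells, while in young mice alone these cells are at 0 for Chac1 and lead only for Sesn2.

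The gene most like each member over the 56 sums of those 8 types was found by Pearson's r of log2 levels among 7306 genes. The points share mice and cell types, so r is a description. Atf4 was most like Mat2a (r = 0.78), a methionine adenosyltransferase, with Hspa5 in rank 6 (0.75). Hspa5 and Herpud1 were alike (0.73, rank 2 for Herpud1 after Zfand5 at 0.73). Sesn2 was most like Ptges3 (0.67), with Asns in rank 12 (0.56). Xbp1 was most like Clk1 (0.88), Asns like Cast (0.84), Ppp1r15a like Csrnp1 (0.84) and Ddit3 like Aldh2 (0.81), and for these 4 no other member was in the leading 100. Chac1 and Trib3 were too low for this measure.

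Whether the genes ran together from cell to cell was asked by splitting each cell type into cells with and without a Ddit3 UMI, after thinning each cell to 2000 UMIs. None of 45 comparisons (9 genes in 5 cell types) passed Benjamini-Hochberg adjustment by the exact sign-flip permutation test over mice, with 0 higher and 1 lower at an unadjusted p under 0.05. Only 18 of the 45, in AV and vascular cells with 7 mice, could reach an unadjusted p under 0.05 at all, since the smallest possible p was 0.0156 there, 0.125 with the 4 mice of myoepithelial cells and fibroblasts and 0.25 with the 3 mice of HS cells. After adjustment over 45 the test could hardly pass, so this count does not show that the genes ran apart. Splitting by Atf4, where the smallest possible p was 0.0156 (0.0312 in fibroblasts), gave 0 of 45 after adjustment and 5 higher at an unadjusted p under 0.05. The split by Chac1 had 3 or 4 mice, whose smallest possible p of 0.25 or 0.125 allowed no call, and it is not read. In AV cells, for example, 289 cells had a Ddit3 UMI after thinning and held 374 ± 136 CPM of Atf4 (SD, n = 7), against 362 ± 52.4 in the 4531 cells without. The 1 lower value of the Ddit3 split was Chac1 in vascular cells, at 0 in the 156 cells with a Ddit3 UMI and 11.6 ± 11.4 CPM in the 1663 without (unadjusted p = 0.0312, exact permutation test).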

How the data were processed

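Single-cell libraries of 7 mice were sequenced and aligned to mm10 with Cell Ranger 2.0, per the labels and the study's methods. The authors deposited raw UMI counts of cells that had passed their own filters, with their cell type names, which were used as given. The mitochondrial share (a fraction) and cell cycle scores per cell were also deposited as computed by the authors, and the scores entered no result. Doublets were not called again here. UMI sums were formed for each mouse and cell type (at least 3 cells, and at least 3 mice per age group) and tested with edgeR 4.0.16 in R 4.3.3 (quasi-likelihood, TMM factors, filterByExpr), with Benjamini-Hochberg adjustment over all genes tested. DESeq2 1.42.0 was an alternative. Epithelial, HS-AV, Ma and Mb and interaction fits had the mouse as a block. Cells were thinned to 2000 UMIs for shares and split comparisons. Levels entered permutation tests as log2(CPM + 1), and split comparisons as log2(CPM + 10). The scripts were tested on simulated counts.

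The 10 genes and the wider lists were chosen with earlier results of these data known. All 10 genes were described. Of the wider lists, the 5 called genes with the largest log2 difference and no overlap between groups were named per comparison, or 1 direction in every mouse in blocked fits. Genes outside this rule are marked as named after their values were seen. Other settings were DESeq2, RLE factors, no filter, no ribosomal and mitochondrial genes, a replicate block, no fold minimum, at least 10 cells, thinned sums and each mouse left out, and total counts, which was added after the data were seen. Mice are separate animals with 1 library each, and intervals and floors cover counting error only.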

Additional observations from a re-analysis of the deposited data

Results flagged for a closer look

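Atf4 in the myoepithelial sum of Aged A stood apart from the other aged mice. It was at 395.7 TMM-scaled CPM against 591.7 to 626.1 in Aged B, C and D, and its gap to the nearest of them was 0.851 of the range of the 4 aged mice. This was 1 of 56 groups of 4 aged mice examined, and chance marks about 1 group in 20. Without Aged A the number of the 10 genes called higher in myoepithelial cells was 8, as with it.

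For 6 values the age difference itself differed between 2 cell types by the interaction term (edgeR quasi-likelihood test, adjusted p under 0.05). Against AV cells the myoepithelial difference was larger by 2.51 on the log2 scale for Trib3, 2.33 for Asns and 0.76 for Ppp1r15a. Against HS cells it was larger by 3.81 for Trib3, 2.37 for Asns and 1.24 for Xbp1. Trib3 needed the aged sums to pass the count filter in both fits, so a difference was built into its entry.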

How the results depend on the processing

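Of the counts of calls, 241 of 278 with 1 mouse left out and 258 of 294 under other settings stayed within 1.5 times the value reported, as did 267 of 336 and 352 of 432 counts of the wider lists in 1 cell type. Of single genes 464 of 549 and 542 of 595 kept their direction and call. The 6 vascular calls held in every setting run. The causes of the changes below were not tested, beyond fewer UMIs after thinning and fewer mice in leave-one-out fits.

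With sums thinned to the smallest, 0 of the 10 genes were called higher in myoepithelial, HS, AV and pericyte sums, and Xbp1 in myoepithelial cells turned to -0.28. Over all cell types thinning left 16 higher and 0 lower ATF4-responsive genes (49 and 7 reported), 0 and 1 folding genes (3 and 9), 2 and 0 degradation and secretory genes (11 and 5) and 1 higher kinase or sensor (6). Total counts moved the median of all genes by -0.03 to -0.36, RLE factors by less than 0.05. Total counts gave 0 calls in AV cells and turned vascular Hspa5 to -0.13, Ddit3 to -0.086, Atf4 to -0.011 and Ppp1r15a to -0.00838, and left 1 higher and 22 lower folding genes, 5 and 15 degradation and secretory genes and 3 and 6 kinases and sensors. With no filter there was 1 lower call in HS-AV cells, 1 higher in Mb macrophages, 0 in pericytes and 3 in the HS and AV interaction, where RLE factors gave 1.

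The mouse letters share only a name, since young and aged mice are different animals. Pairing by letter gave correlations of deviations from -0.17 to 0.31 over 26 pairs of type and letter. With this replicate block 0 of the 10 genes were called in HS, AV and pericyte cells, with 3 lower ATF4-responsive genes, 3 lower folding genes, 5 higher and 1 lower degradation and secretory genes and 1 lower kinase or sensor.

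In young mice alone the AV against HS contrast had 1 lower call, AV against myoepithelial 2 higher and 1 lower, and HS against myoepithelial 4 lower, with Asns at 0.58. In aged mice alone HS against myoepithelial had 0 higher.

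Leaving out each mouse, the 10 genes gave 4 to 8 higher calls in myoepithelial, 0 to 2 in HS, 0 to 1 in AV and 0 to 1 in pericyte cells, and HS Hspa5 ranged from -0.024 to 0.31. Over all cell types the ranges were 33 to 52 higher and 1 to 8 lower ATF4-responsive genes, 1 to 3 and 3 to 10 folding genes, 5 to 9 and 1 to 6 degradation and secretory genes and 3 to 5 and 0 to 3 kinases and sensors. AV against HS had 4 to 6 higher, Ma against Mb 0 to 1 lower, and the interactions 0 to 2 (HS and AV), 0 to 4 (myoepithelial and AV), 2 to 3 (myoepithelial and HS) and 0 to 1 (vascular and fibroblast). Thinning each cell, which by itself lowers the chance of seeing a UMI, moved 47 of 50 mean shares by at least the SD between aged mice.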
